A study of Homo sapiens with 6 samples.

Results

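Fatty acid beta-oxidation genes were examined by RNA-Seq in C4-2B parental cells and C4-2B enzalutamide resistant cells. The genes were a named list of 32, matched by symbol to the 58024 genes of the expression table, and all 32 were found. Their levels are in FPKM, fragments scaled for transcript length and for the number of mapped fragments, and all 32 averaged 0.1 FPKM or more over the libraries, the minimum for testing. C4-2B is a castration-resistant human prostate cancer line that descends from LNCaP cells through growth in castrated nude mice, and enzalutamide is an antiandrogen drug. The 3 resistant libraries came from C4-2B cells passaged with enzalutamide that was raised from 1 to 20 µM over 6 months or longer and then kept at 5 µM, and the 3 parental libraries from control C4-2B cells passaged in the vehicle DMSO, at 1% by the series' design text and at a lower limit by the study's methods. Both lines were grown in the same medium with serum. The surviving fraction was pooled, so the resistant line is a population and not a clone, and it is a single selection from a single line. The labels mention an exposure to 10 µM enzalutamide before RNA extraction, and whether parental cells also received it is not clear from them. The libraries carry the numbers 0, 1 and 2 in each group, and nothing says that they came from separate cultures, so the p-values below measure only the spread between these libraries, which may be technical.

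Beta-oxidation shortens fatty acids by a 2-carbon unit per round. In mitochondria, CPT1 enzymes of the outer membrane load long-chain acyl groups onto carnitine, a carrier moves them across the inner membrane, and CPT2 returns them to CoA. Each round is then a dehydrogenation by a chain-length specific acyl-CoA dehydrogenase, a hydration, a further dehydrogenation and a thiolytic cleavage, and the electrons of the acyl-CoA dehydrogenases pass through the electron transfer flavoprotein to the respiratory chain. Peroxisomes run a similar spiral on very long-chain and branched-chain fatty acids and bile acid intermediates, but start it with oxidases that hand electrons to oxygen. Prostate cancer cells are known for a strong use of fatty acids as fuel, and AMACR, which prepares branched-chain substrates, is a tissue marker of prostate cancer.

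In enzalutamide resistant cells 10 of the 32 genes were upregulated, 11 were downregulated and 11 did not pass the test (limma on log2(FPKM + 0.1), Benjamini-Hochberg adjusted p below 0.05, 3 libraries per group). Among all 24468 genes tested, 44.4% were called, 22.1% higher and 22.3% lower, and of those averaging 1 FPKM or more, as all 32 do, 53.2% were called. The share called among the 32, 65.6%, therefore stands against a background in which about every other gene changed. A change of at least 2-fold was called for 12 of the 32, 3 higher and 9 lower. Over all genes tested it was called for 28.5%, 3659 genes higher and 3320 lower. The values of the groups did not overlap for 22 of the 32, 11 in each direction, beside 54.8% of all genes tested. The median log2 fold change of the 32 was 0.02, beside -0.05 over all genes tested. All fold changes are on the log2(FPKM + 0.1) scale, resistant minus parental, and understate the change of low genes.

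The libraries were similar in size, with summed FPKM of 792975 to 870110 and 21956 to 27153 genes above 0. Correlations of log2 values across genes were 0.911 to 0.929 within a line and 0.782 to 0.802 between the lines. Of 10 luminal prostate markers all were present, 7 were lower and 2 higher in resistant cells, and their summed level was 4227 to 5004 FPKM in parental and 1234 to 1320 FPKM in resistant libraries. Of 7 neuroendocrine markers 4 were higher, and the sum went from between 7.07 and 11.3 FPKM to between 189 and 211 FPKM. Summed fibroblast markers were 8.07 to 11.4 and 8.34 to 15 FPKM, with 2 of 7 higher and 1 lower. Leukocyte markers summed to at most 2.43 FPKM, endothelial markers to at most 1.14 FPKM and basal epithelial markers to at most 0.927 FPKM in any library. In RNA of whole cultures, fewer cells of a type and less RNA per cell cannot be told apart, and the part of the marker shifts in the results below was not tested.

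**Figure D1:**
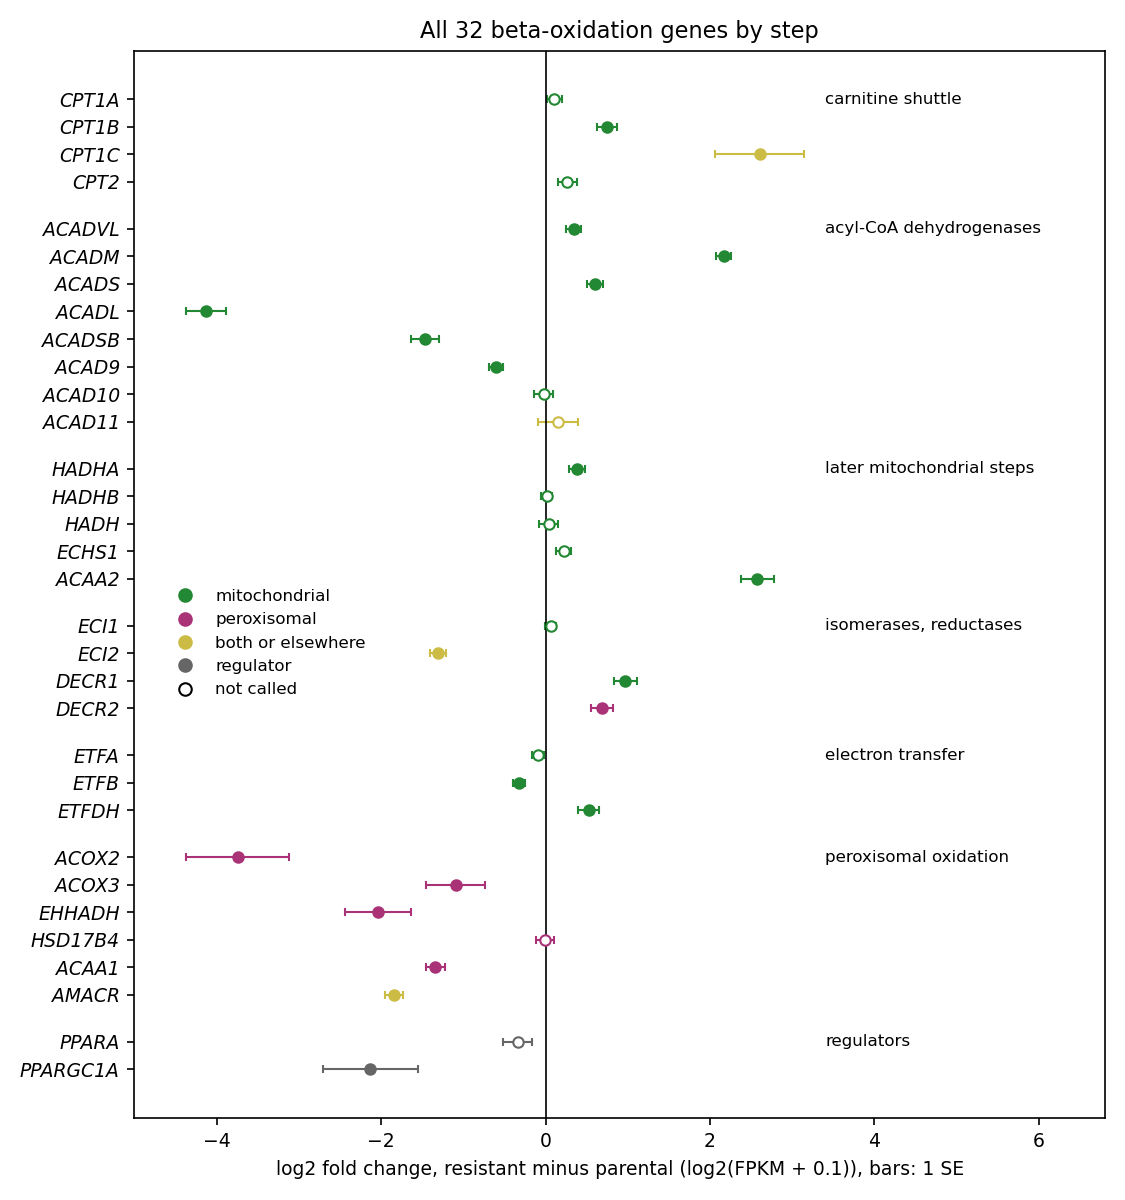
Log2 fold change of each of the 32 genes, resistant minus parental, on the log2(FPKM + 0.1) scale, ordered by step of the pathway. Points are limma estimates from 3 libraries per group, bars are 1 SE, colours give the organelle and open circles did not pass the test. The dehydrogenases spread from -4.13 for ACADL to 2.16 for ACADM. The 6 genes drawn under peroxisomal oxidation lie below 0, HSD17B4 at -0.01 with a sign that changes with the scaling. They include AMACR, of both organelles, and leave out the peroxisomal DECR2, drawn with the isomerases and reductases at 0.69.

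Among the CPT1 genes, the less abundant CPT1B and CPT1C rose, and of these only CPT1B is counted as mitochondrial here. CPT1A, the widespread liver-type enzyme, measured 73.8, 68.2 and 83.4 FPKM in parental and 76.0, 84.5 and 81.8 FPKM in resistant libraries. The groups overlap, and the log2 fold change of 0.11 (SE 0.09) did not pass the test (limma, adjusted p = 0.393). CPT1B, the muscle-type form, rose from 18.1 ± 1.73 to 30.5 ± 2.88 FPKM (SD, n = 3), a log2 fold change of 0.75 (SE 0.12, limma adjusted p = 0.00273). The readthrough gene CHKB-CPT1B shares 66.4% of the exonic bases of CPT1B, and with its FPKM added the log2 difference was 0.78. CPT1C, a brain-enriched form of the endoplasmic reticulum with little measured transferase activity, measured 1.69, 5.90 and 1.62 FPKM in parental and 23.3, 15.3 and 11.4 FPKM in resistant libraries. Every resistant library lies above every parental library, and parental library 1 stands well above the other parental libraries. The log2 fold change of CPT1C was 2.60 (SE 0.54, limma adjusted p = 0.0086), and 3.19 without parental library 1. CPT2 measured 21.1, 23.5 and 20.0 FPKM in parental and 22.8, 28.0 and 26.9 FPKM in resistant libraries, with a log2 fold change of 0.26 (SE 0.12, limma adjusted p = 0.111). The summed CPT1 level, with CPT1C included, went from 96.3 ± 6.90 to 128 ± 3.36 FPKM, without overlap. CPT1A stayed the main form, but its share of that sum was 77.9% ± 4.10 in parental and 63.1% ± 2.67 in resistant libraries, while that of CPT1C was 3.24% ± 2.68 and 13% ± 4.82.

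The acyl-CoA dehydrogenases, which carry out the first step of each round, moved in opposite directions. ACADM, the medium-chain enzyme (chr1:75724431-75787575, GRCh38, plus strand), measured 44.4, 38.7 and 39.8 FPKM in parental and 169, 182 and 202 FPKM in resistant libraries. All resistant values lie far above the parental ones, and the means differ 4.5 times (log2 fold change 2.16, SE 0.09, limma adjusted p = 2.17e-05). ACADL, the long-chain enzyme (chr2:210187126-210225447, minus strand), measured 29.4, 37.3 and 30.2 FPKM in parental and 2.42, 1.28 and 1.71 FPKM in resistant libraries. Its parental mean is 17.9 times the resistant mean, which made ACADL the most strongly downregulated of the 32 genes under the test used here (log2 fold change -4.13, SE 0.24, limma adjusted p = 5.71e-05). The ratio of ACADM to ACADL was 1.51, 1.04 and 1.32 in parental and 69.6, 142 and 118 in resistant libraries. These genes were therefore near parity in parental cells and far apart in resistant cells, in every library.

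The regions before the ACADM and ACADL starts are printed because, among the dehydrogenases, these genes had the strongest rise and the strongest fall. Both are the 250 bases upstream of the RefSeq transcript start, on the gene's strand in GRCh38.p14, for ACADM chr1:75724459-75724708 on the plus strand and for ACADL chr2:210225448-210225697 on the minus strand. The whole ACADM span in GENCODE v44 starts earlier, at 75724431, and so includes the ACADM region. Capitals mark the GC box, GGGCGG on either strand, and adjoining boxes may overlap by a base.
ACADM: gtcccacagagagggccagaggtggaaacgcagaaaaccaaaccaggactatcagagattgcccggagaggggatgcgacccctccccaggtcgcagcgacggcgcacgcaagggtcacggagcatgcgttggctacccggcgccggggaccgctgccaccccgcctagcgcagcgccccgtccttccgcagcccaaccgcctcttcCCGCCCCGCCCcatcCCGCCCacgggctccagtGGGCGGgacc
ACADL: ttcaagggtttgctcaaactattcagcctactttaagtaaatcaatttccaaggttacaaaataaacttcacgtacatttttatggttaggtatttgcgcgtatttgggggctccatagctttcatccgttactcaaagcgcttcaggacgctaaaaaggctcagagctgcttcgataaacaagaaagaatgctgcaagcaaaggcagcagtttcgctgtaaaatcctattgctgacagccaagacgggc
The ACADM region holds 4 GC boxes and 70.8% G and C, and the ACADL region holds none and 42% G and C. A GC box was found in the same window for 42.6% of the 35116 RefSeq promoters, and in 24 of the 33 promoters that matched 24 of the 32 genes. The 19 genes with a box include ACADSB, ACAD9, ECI2, ETFB and ACOX3, which fell. They also include ACADM, ACADS, ACADVL, CPT1C and HADHA, which rose, and genes that did not pass the test. AGGTCA, a site of nuclear receptors, was found in 12.1% of all promoters and among these genes only for ACAD10. The longer oestrogen-related receptor site TCAAGGTCA, which contains AGGTCA, was found in 0.319% of all promoters, and the DR1 element of PPAR in 0.0171%. Neither was found for the 24 genes matched. These sites occur in only 112 and 6 of the 35116 promoters, so a count of none in 33 promoters carries no information. The 8 genes without a promoter entry, among them ACOX2, EHHADH, ACAA1 and DECR2, were not searched. A match describes letters in this window only, and no binding was measured.

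The other dehydrogenases changed less. ACADSB, which acts on short branched-chain acyl-CoA from isoleucine, measured 25.6, 37.3 and 26.3 FPKM in parental and 10.2, 9.64 and 11.9 FPKM in resistant libraries. No library overlaps with the other group, and the parental mean is 2.81 times the resistant mean (log2 fold change -1.47, SE 0.17, limma adjusted p = 8.58e-04). ACAD9, which also assembles respiratory complex I, fell from 57.5 ± 3.98 to 37.9 ± 1.91 FPKM (log2 fold change -0.60, SE 0.08, limma adjusted p = 0.00176). ACAD9 shares 832 exonic bases with KIAA1257 on the opposite strand, which measured 8.56 to 12.7 FPKM in parental and 0.741 to 1.71 FPKM in resistant libraries. Whether strand was used in counting is not stated, and the part of KIAA1257 reads in this value was not tested. ACADS, the short-chain enzyme, rose from 20.0 ± 0.766 to 30.4 ± 2.38 FPKM (log2 fold change 0.60, SE 0.09, limma adjusted p = 0.00252). ACADVL, the very long-chain enzyme of the inner membrane, rose from 507 ± 51.2 to 641 ± 44.1 FPKM (log2 fold change 0.34, SE 0.09, limma adjusted p = 0.0254). This call was lost without parental library 0 (adjusted p = 0.0818) or 1 (0.0666) and without resistant library 0 (0.0603) or 2 (0.0896). It was also lost when the spread was not allowed to depend on the level (0.0988). ACAD10 (30.7 ± 1.97 and 30.4 ± 4.05 FPKM) and ACAD11 (12.1 ± 1.54 and 13.8 ± 4.6 FPKM) did not pass the test, with limma adjusted p = 0.908 and 0.633.

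Summed over the 8 dehydrogenases, the level was 730 ± 51.1 FPKM in parental and 950 ± 68.1 FPKM in resistant libraries, without overlap. ACADVL made up 69.3% ± 2.18 of this sum in parental and 67.5% ± 0.841 in resistant libraries, and the groups overlap. The share of ACADM went from 5.63% ± 0.651 to 19.4% ± 0.818, whereas ACADL went from 4.45% ± 0.780 to 0.191% ± 0.0659, ACADSB from 4.10% ± 1.06 to 1.11% ± 0.0464 and ACAD9 from 7.88% ± 0.309 to 4.02% ± 0.469. The very long-chain transcript thus kept about the same share, and the rest of the sum changed from a mixture of several enzymes to mostly ACADM. A share of FPKM compares transcripts per length, not enzyme amounts.

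**Figure D2:**
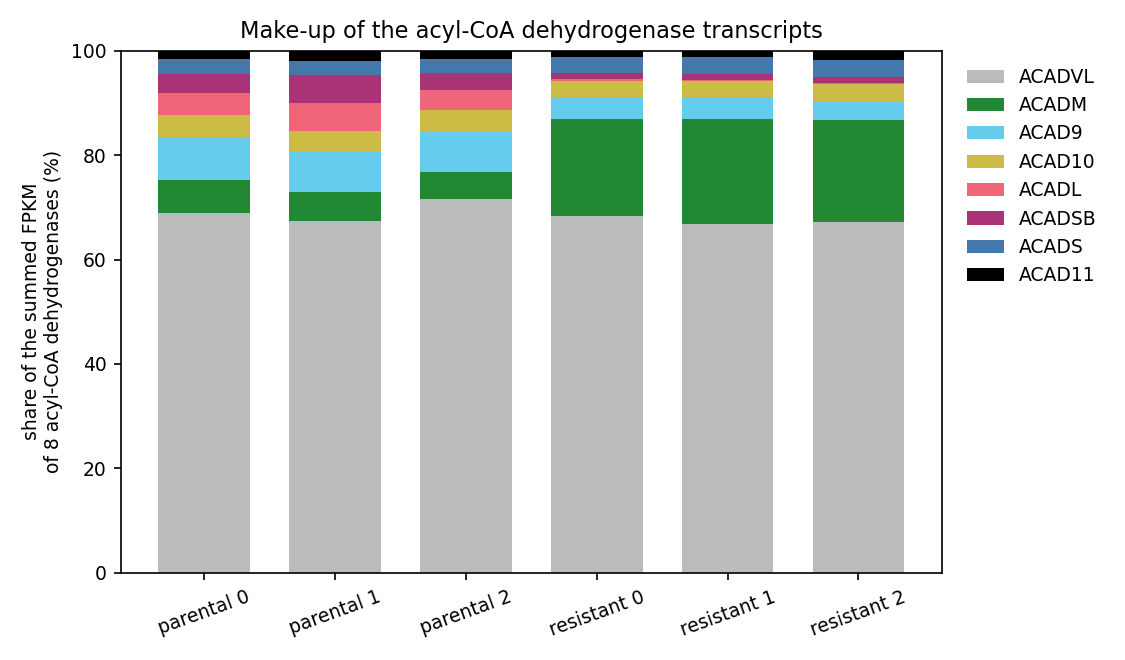
Share of each gene, in percent, of the summed FPKM of the 8 acyl-CoA dehydrogenases, a stacked bar per library for parental and resistant libraries 0, 1 and 2. ACADVL fills about the same share of every bar, ACADM widens from 5.04 to 6.33% in parental to 18.5 to 20.1% in resistant libraries, and ACADL is hardly visible in the resistant bars.

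Of the later mitochondrial steps, the thiolase changed most. ACAA2, the mitochondrial 3-ketoacyl-CoA thiolase for medium-chain substrates, measured 2.5, 1.76 and 2.01 FPKM in parental and 10.5, 14.2 and 14.0 FPKM in resistant libraries. It was low in every parental library, and its mean was 6.19 times higher in resistant cells (log2 fold change 2.57, SE 0.20, limma adjusted p = 1.68e-04). HADHA, the hydratase and long-chain dehydrogenase subunit of the trifunctional protein, measured 68.0, 65.8 and 70.0 FPKM in parental and 78.7, 98.8 and 89.6 FPKM in resistant libraries. HADHB, its thiolase subunit, measured 53.7, 56.6 and 52.5 FPKM in parental and 52.8, 56.8 and 54.5 FPKM in resistant libraries. HADHA rose without overlap (log2 fold change 0.38, SE 0.10, limma adjusted p = 0.0186), while the values of HADHB overlap (log2 fold change 0.01, SE 0.07, limma adjusted p = 0.910). The HADHA call was lost without parental library 0 (adjusted p = 0.0541) or 1 (0.0510) and without resistant library 2 (0.0606). It was also lost when the spread was not allowed to depend on the level (0.0717). The ratio of HADHA to HADHB was 1.27, 1.16 and 1.33 in parental and 1.49, 1.74 and 1.64 in resistant libraries, so that the subunits were further from parity in each resistant library. HADH, the dehydrogenase for short and medium chains, measured 55.3 ± 4.41 and 56.9 ± 7.15 FPKM (log2 fold change 0.04, limma adjusted p = 0.826). ECHS1, the short-chain hydratase, measured 196, 177 and 182 FPKM in parental and 203, 242 and 204 FPKM in resistant libraries (log2 fold change 0.22, SE 0.09, limma adjusted p = 0.0921). Its groups do not overlap, and it passed the test under each of the 3 other scalings of the libraries (adjusted p = 0.0103 to 0.0397).

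The HADHA upstream region is printed because HADHA and HADHB lie head to head on chromosome 2, with 306 bases between their RefSeq starts at 26244632 and 26244939, and yet only HADHA passed the test. In GENCODE v44 the whole gene spans overlap, HADHA at chr2:26190635-26244672 and HADHB at chr2:26243170-26290465. The 250 bases at chr2:26244633-26244882 of GRCh38.p14 are given on the minus strand, the strand of HADHA, and they fill most of the stretch between the RefSeq starts. Capitals again mark the GC box.
HADHA: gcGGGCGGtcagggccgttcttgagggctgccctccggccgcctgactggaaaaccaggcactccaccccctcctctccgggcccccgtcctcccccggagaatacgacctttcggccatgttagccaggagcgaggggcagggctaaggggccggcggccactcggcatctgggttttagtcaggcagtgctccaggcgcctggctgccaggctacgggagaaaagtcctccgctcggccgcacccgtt
The region holds 1 GC box and 68.8% G and C. The difference between the fold changes of HADHA and HADHB was not tested.

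The isomerases and reductases, which make unsaturated fatty acids fit for the spiral, also split. ECI2, an isomerase found in both peroxisomes and mitochondria, measured 126, 113 and 113 FPKM in parental and 42.3, 49.3 and 50.7 FPKM in resistant libraries. It was lower in every resistant library, with a parental mean 2.47 times the resistant mean (log2 fold change -1.31, SE 0.10, limma adjusted p = 1.28e-04). ECI1, the mitochondrial isomerase, measured 120 ± 5.57 and 125 ± 3.82 FPKM (log2 fold change 0.06, SE 0.06, limma adjusted p = 0.456). The ratio of ECI2 to ECI1 was 0.980 ± 0.0178 in parental and 0.38 ± 0.044 in resistant libraries. The 2,4-dienoyl-CoA reductases rose in both organelles. DECR1 of mitochondria went from 30.8 ± 5.03 to 60.0 ± 5.91 FPKM (log2 fold change 0.97, SE 0.14, limma adjusted p = 0.00192). DECR2 of peroxisomes went from 28.0 ± 4.64 to 44.8 ± 3.20 FPKM (log2 fold change 0.69, SE 0.14, limma adjusted p = 0.00716). DECR2 shares 14.3% of its exonic bases with NME4 on the same strand, which measured 1.02 to 1.60 FPKM over all libraries.

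Electron transfer from the dehydrogenases showed small shifts. ETFA, the alpha subunit of the electron transfer flavoprotein, measured 199, 180 and 189 FPKM in parental and 170, 190 and 174 FPKM in resistant libraries. ETFB, the beta subunit, measured 211, 195 and 214 FPKM in parental and 168, 171 and 157 FPKM in resistant libraries. ETFA overlaps between the groups (log2 fold change -0.09, SE 0.07, limma adjusted p = 0.366), and ETFB fell without overlap (log2 fold change -0.32, SE 0.07, limma adjusted p = 0.00947). The call of ETFB was lost when the spread was not allowed to depend on the level (adjusted p = 0.0730). The ratio of ETFA to ETFB, subunits of a heterodimer, was 0.916 ± 0.0320 in parental and 1.08 ± 0.0561 in resistant libraries. ETFDH, the membrane oxidoreductase that passes the electrons to ubiquinone, rose from 18.4 ± 2.39 to 26.5 ± 2.12 FPKM (log2 fold change 0.52, SE 0.13, limma adjusted p = 0.0157), a call lost without resistant library 1 (adjusted p = 0.0550) or 2 (0.0549).

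The peroxisomal step was lower at most of its enzymes. ACOX2, the oxidase for branched-chain and bile acid intermediates (chr3:58505136-58537283), measured 22.1, 20.4 and 20.4 FPKM in parental and 2.80, 0.439 and 2.38 FPKM in resistant libraries. It was low in each resistant library and lowest in library 1 (log2 fold change -3.74, SE 0.63, limma adjusted p = 0.00366), and without that library the log2 fold change was -2.97. ACOX3, the pristanoyl-CoA oxidase, measured 13.5, 7.24 and 8.13 FPKM in parental and 2.78, 6.27 and 4.52 FPKM in resistant libraries. The groups are close but do not overlap (log2 fold change -1.09, SE 0.36, limma adjusted p = 0.0486). This call was lost under 11 of the 15 alternatives tried, among them leaving out parental library 0 (adjusted p = 0.132), 1 (0.0563) or 2 (0.0840) and resistant library 0 (0.122) or 2 (0.113).

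EHHADH, the peroxisomal bifunctional enzyme of straight-chain substrates (chr3:185190624-185281990), measured 4.26, 9.48 and 10.3 FPKM in parental and 1.94, 2.23 and 1.21 FPKM in resistant libraries. It was lower in every resistant library, though parental library 0 lies well below the other parental libraries (log2 fold change -2.04, SE 0.40, limma adjusted p = 0.00713). HSD17B4, the D-bifunctional protein that serves branched-chain and bile acid substrates, measured 371, 292 and 355 FPKM in parental and 359, 320 and 328 FPKM in resistant libraries. It was the most abundant peroxisomal transcript of the 32 and its groups overlap (log2 fold change -0.01, SE 0.11, limma adjusted p = 0.953). ACAA1, the peroxisomal 3-ketoacyl-CoA thiolase (chr3:38103129-38137242), measured 73.5, 65.4 and 87.7 FPKM in parental and 30.6, 28.9 and 29.2 FPKM in resistant libraries. Its parental mean is 2.55 times the resistant mean (log2 fold change -1.34, SE 0.12, limma adjusted p = 2.59e-04). The thiolases of the organelles thus moved in opposite directions, and the ratio of ACAA1 to ACAA2 was 29.4, 37.2 and 43.6 in parental and 2.91, 2.03 and 2.08 in resistant libraries.

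AMACR, the racemase of branched-chain acyl-CoA found in both organelles (chr5:33986165-34008104), measured 39.2, 46.0 and 38.5 FPKM in parental and 11.2, 12.1 and 10.8 FPKM in resistant libraries. All resistant values are well below the parental ones, with a parental mean 3.62 times the resistant mean (log2 fold change -1.84, SE 0.11, limma adjusted p = 5.27e-05). The readthrough gene C1QTNF3-AMACR shares 61.4% of the AMACR exonic bases, and with its FPKM added the log2 difference was -1.74.

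**Figure D3:**
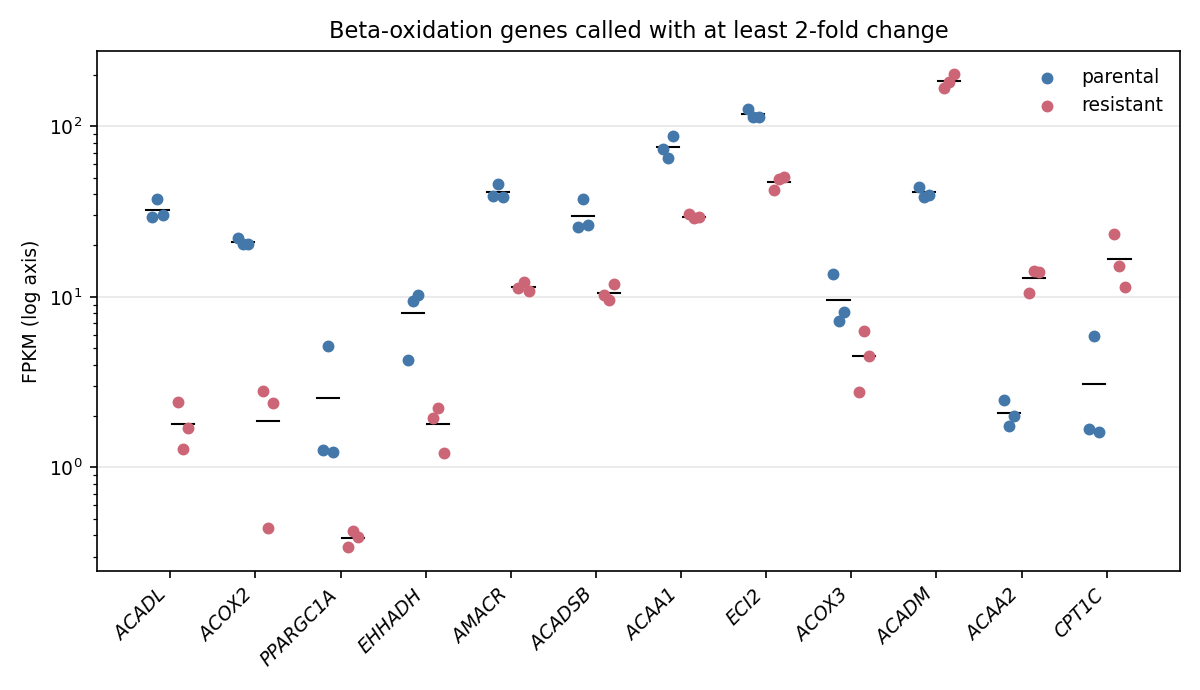
FPKM on a log axis in each library for the 12 genes called with at least a 2-fold change, ordered by log2 fold change, with parental libraries in blue and resistant libraries in red. Short black lines are group means of 3 libraries. The groups do not overlap for any of the 12, and the points lie closest for ACOX3.

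Mitochondrial and peroxisomal genes were then set side by side, as a description with no test, since genes are not replicates. Of the 20 mitochondrial genes, 8 rose, 4 fell and 8 did not pass the test, with a median log2 fold change of 0.17. Of the 6 peroxisomal genes, DECR2 rose, ACOX2, ACOX3, EHHADH and ACAA1 fell and HSD17B4 did not pass the test, with a median of -1.22. Of the 4 genes in both organelles or elsewhere, CPT1C rose, ECI2 and AMACR fell and ACAD11 did not pass the test. Over all genes tested, 22.1% were called higher and 22.3% lower, and the median was -0.05. Of the genes averaging 1 FPKM or more, 53.2% were called in either direction.

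The summed FPKM of the mitochondrial genes was 1762 ± 72.2 in parental and 2058 ± 73.7 in resistant libraries, without overlap. The summed FPKM of the peroxisomal genes was 482 ± 55.0 and 418 ± 17.8, with overlap, and HSD17B4 made up most of it. The peroxisomal sum as a percentage of the mitochondrial sum was 29.0, 24.7 and 28.1% in parental and 22.2, 19.4 and 19.5% in resistant libraries. Without HSD17B4 this percentage was 8.05% ± 0.611 in parental and 4.01% ± 0.0793 in resistant libraries. The percentage was lower in every resistant library either way, and its size depends on whether HSD17B4 is counted. Such a ratio does not depend on a single scaling factor per library.

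Other genes of these organelles served to set the difference in context. Of 16 peroxisome biogenesis genes, 7 rose, 6 fell and 3 did not pass the test, with a median log2 fold change of 0.15. PEX10, a ubiquitin ligase of the import machinery, had a log2 fold change of -1.25 (limma adjusted p = 8.93e-05). Of 13 other genes of peroxisomal entry and oxidation that were tested, 3 rose, 3 fell and 7 did not pass the test, with a median of -0.16. ACOXL, an acyl-CoA oxidase-like gene, had a log2 fold change of -1.79 (limma adjusted p = 0.0134), and ACOT4, a peroxisomal thioesterase, is listed at 0 in all parental libraries and at 1.26 to 1.28 FPKM in resistant libraries. Of 14 mitochondrial import and matrix genes, 5 rose, 4 fell and 5 did not pass the test, with a median of -0.04, and VDAC1, a channel of the outer membrane, had a log2 fold change of -1.26 (limma adjusted p = 1.06e-04). The lists of biogenesis, of other peroxisomal entry and oxidation and of import and matrix genes thus had medians close to that of all genes. The median of the 6 peroxisomal enzymes lay further away, and these differences between lists were not tested.

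**Figure D4:**
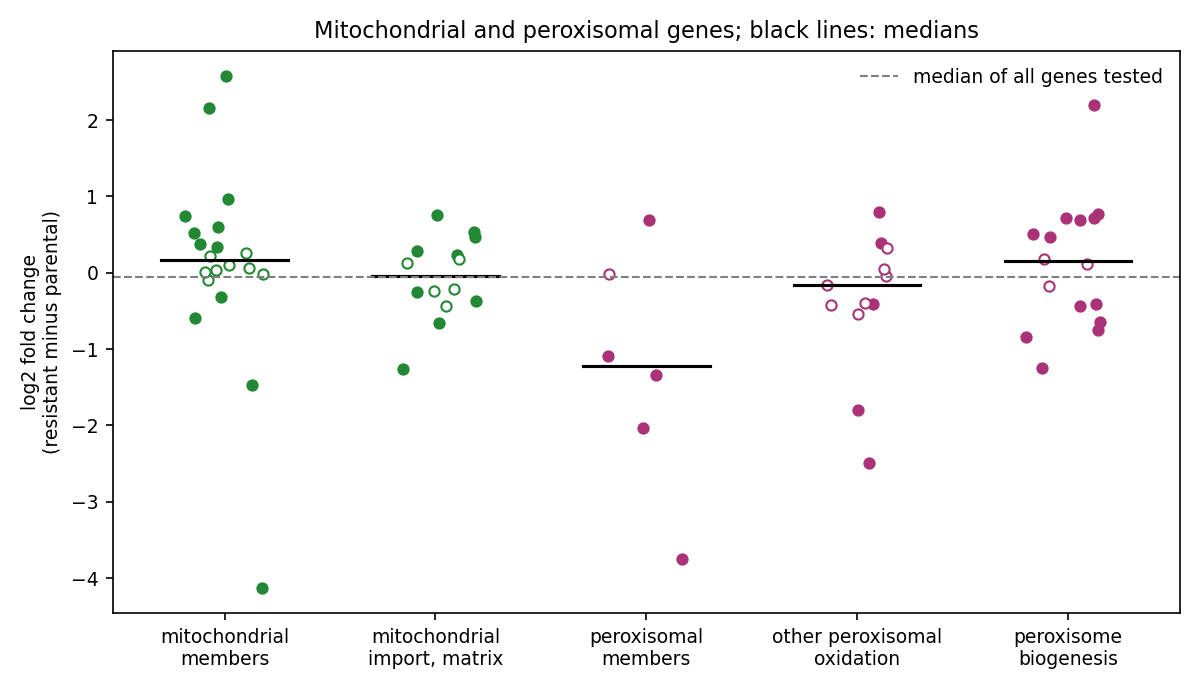
Log2 fold change, resistant minus parental, of mitochondrial and peroxisomal genes in 5 lists, a point per gene, filled where the gene passed the test. Black lines are list medians, 0.17, -0.04, -1.22, -0.16 and 0.15 from left to right, the dashed line is the median of all genes tested at -0.05, and ACOT4 counts in its median but is not drawn because it is listed at 0 in all parental libraries.

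Supply of substrate to the pathway moved in both directions. Of 15 tested genes of fatty acid uptake and activation, 5 rose, 5 fell and 5 did not pass the test, with a median log2 fold change of -0.09. ACSL3, an acyl-CoA synthetase of the endoplasmic reticulum and lipid droplets, measured 701, 603 and 691 FPKM in parental and 68.8, 79.4 and 86.9 FPKM in resistant libraries (log2 fold change -3.09, limma adjusted p = 1.05e-05). ACSL1, a long-chain synthetase, had a log2 fold change of -1.91 (limma adjusted p = 1.89e-04) and SLC27A3, of the fatty acid transport protein family, of 3.21 (limma adjusted p = 6.83e-05). Of 5 tested genes of carnitine supply and transport, 4 rose, 1 did not pass the test and none fell, with a median of 1.05. CRAT, the acetyltransferase of carnitine, measured 4.0, 5.99 and 5.95 FPKM in parental and 28.0, 29.0 and 34.6 FPKM in resistant libraries (log2 fold change 2.52, limma adjusted p = 1.44e-04). CROT, which makes medium-chain acylcarnitines in peroxisomes, rose by 1.05 on the log2 scale (limma adjusted p = 5.07e-04). TMLHE, the first enzyme of carnitine synthesis, is listed at 0 in all parental libraries and at 7.56, 8.66 and 9.61 FPKM in resistant libraries. The remaining gene called, SLC25A20, the carnitine and acylcarnitine carrier of the inner membrane, was named after its values were seen and rose by 0.92 on the log2 scale (limma adjusted p = 5.88e-04). The list is short, and its 4 genes called higher, 1 of them listed at 0 in all parental libraries, stand beside 22.1% called higher among all genes tested.

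Of 5 genes that control entry through malonyl-CoA, the inhibitor of CPT1, 1 rose, 2 fell and 2 did not pass the test, with a median log2 fold change of -0.31. ACACA, the cytosolic acetyl-CoA carboxylase that makes malonyl-CoA, measured 258 ± 31.8 FPKM in parental and 98.7 ± 4.24 FPKM in resistant libraries (log2 fold change -1.38, limma adjusted p = 1.42e-04). Of 12 genes of propionyl-CoA and ketone body steps, 5 rose, 4 fell and 3 did not pass the test, with a median of 0.26. BDH2, a hydroxybutyrate dehydrogenase family member, rose by 1.92 (limma adjusted p = 1.42e-04), and ACAT1, the mitochondrial acetoacetyl-CoA thiolase, had a log2 fold change of -1.29 (limma adjusted p = 3.68e-04). Of 7 tested genes of flavin supply and assembly, 3 rose, 1 fell and 3 did not pass the test, with a median of 0.34. The gene that fell, RFK, the riboflavin kinase, had a log2 fold change of -1.35 (limma adjusted p = 0.0079).

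The regulators were less abundant than most of the enzymes. PPARA, the nuclear receptor that drives beta-oxidation genes when bound by fatty acids, measured 7.69, 8.65 and 8.05 FPKM in parental and 8.14, 5.51 and 5.81 FPKM in resistant libraries. The groups overlap through resistant library 0, and the log2 fold change of -0.34 (SE 0.18) did not pass the test (limma, adjusted p = 0.172), but passed it without that library (adjusted p = 0.0367). PPARGC1A, the coactivator PGC-1 alpha, measured 1.26, 5.16 and 1.22 FPKM in parental and 0.340, 0.424 and 0.391 FPKM in resistant libraries. The resistant values are close together and below all parental values, of which library 1 stands apart (log2 fold change -2.13, SE 0.58, limma adjusted p = 0.0253). Without parental library 1 the log2 fold change of PPARGC1A was -1.47, and the call was lost without resistant library 0 (adjusted p = 0.0768), 1 (0.0663) or 2 (0.0733) and with a pseudocount of 1 FPKM, at -1.18 (0.0585).

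Of 15 other receptors, coactivators and response genes of the PPAR pathway, 4 rose, 7 fell and 4 did not pass the test, with a median log2 fold change of -0.55. RXRA, a partner of PPARA, measured 40.8, 40.3 and 39.8 FPKM in parental and 7.80, 8.13 and 8.78 FPKM in resistant libraries (log2 fold change -2.28, limma adjusted p = 1.48e-05). NR2F2, an orphan receptor that can occupy the same elements, had a log2 fold change of -1.91 (limma adjusted p = 6.88e-05). The 4 genes that rose were all response genes of the list, and apart from PLIN2 they were named after their values were seen. PLIN2, a lipid droplet coat protein, measured 0.186, 0.0844 and 0.237 FPKM in parental and 6.60, 6.24 and 4.54 FPKM in resistant libraries. ANGPTL4, a secreted inhibitor of lipoprotein lipase, measured 0.982, 4.16 and 1.44 FPKM in parental and 25.3, 29.4 and 33.0 FPKM in resistant libraries. PDK4, which restrains pyruvate entry into mitochondria, measured 0, 0.0941 and 0.435 FPKM in parental and 3.74, 3.98 and 4.26 FPKM in resistant libraries. These response genes and UCP2, a mitochondrial carrier, were higher in every resistant library, with log2 fold changes of 4.48 for PLIN2, 3.93 for ANGPTL4, 4.23 for PDK4 and 4.5 for UCP2. The size is uncertain where parental values are low. For PLIN2 (limma adjusted p = 1.47e-04) it ranged from 2.53 to 5.11 over the alternatives tried. Other response genes of the list went the other way or did not pass the test, and these too were named after their values were seen. FGF21, a secreted hormone of fasting, had a log2 fold change of -2.58 (limma adjusted p = 0.00465), LPIN1, a phosphatidate phosphatase, of -1.08 (limma adjusted p = 0.0175) and UCP3, a mitochondrial carrier, of -1.11 (limma adjusted p = 0.108). The response genes therefore did not move together, and receptor activity was not measured.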

How the data were processed

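The RNA-Seq libraries were 3 of parental and 3 of enzalutamide resistant C4-2B cells. The authors trimmed 50 bp single-end reads (TrimGalore 0.4.3), mapped them to GRCh38 (STAR 2.5.3) and deposited a table of FPKM per gene (Cufflinks 2.2.1, GENCODE v25). The table names no unit, and FPKM was taken from the methods, the column totals and the fractional values. The submitters' processing notes also name Trimmomatic 0.27, FastQC 0.10.1 and a mouse build, while the identifiers and positions are human. The labels name 2 library kits, of which 1 is stranded, and strand use in counting is not given in the sources used here. How libraries were scaled against each other is not stated either.

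The table holds no read counts. Low values fell within 0.05 of whole reads in only 24.5 to 31.5% of cases, so reads were not recovered and no count test was made. A rough depth was the best match among depths tried, with fragments of 200 bases assumed, and is returned even where steps are weak. It was 13600000 to 20200000 reads per library, at which 1 read on a transcript of 2000 bases would be worth 0.0275 to 0.0408 FPKM. A value of 0 was read as listed at 0, and no fold is given against such a group.

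The test was limma (version 3.58.1, R 4.3.3), moderated with a mean-variance trend and two-sided, on log2(FPKM + 0.1), over the 24468 genes that averaged 0.1 FPKM or more. Benjamini-Hochberg adjustment over these genes was used, with a threshold of 0.05. Exact permutation of 3 against 3 libraries cannot go below p = 0.1 and was not used. The fit was tested on simulated data, with normal noise, independent between libraries, at the spread of these data. That checks the code and not how well the model suits these libraries. Sums, shares and ratios are means ± SD of libraries and carry no test. Positions and overlaps came from GENCODE v44, which matched 56980 of the 58024 identifiers, and promoters from RefSeq on GRCh38.p14, with no entry used for CPT1B, DECR1, ETFDH, ACAA1, EHHADH, DECR2, ACAD11 and ACOX2. Python 3.11.15 with pandas 2.3.3, numpy 2.4.6 and matplotlib 3.10.9 served for tables and figures.

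The members, roles, organelle groups, marker lists and pathway lists were chosen with earlier results of these data known. Values in every library were given for genes called with at least a 2-fold change and a mean of at least 1 FPKM in either group, for the subunits of both complexes, CPT1A, CPT2 and the regulators. From each pathway list the up to 3 genes with the smallest adjusted p at that size were named, and others are marked. Some genes that these choices cover are not reported here. Alternatives were other pseudocounts, filters and scalings, no variance trend, a replicate block, leaving out each library, and other organelle assignments.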

Additional observations from a re-analysis of the deposited data

How the results depend on the processing

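Of 480 gene values under 15 alternatives, 426 kept their direction and their side of the threshold, 27 lost the call, 7 gained it and 20 changed sign. Of the 21 genes called, 15 kept the call under all 15, and ACADVL, HADHA, ETFB, ETFDH, ACOX3 and PPARGC1A lost it under at least 1. CPT1A, CPT2, ECHS1, ECI1 and PPARA gained a call under at least 1. The cause was not tested. Sign changes were limited to genes not called. With the libraries rescaled to the same sum, the log2 fold change of ACAD10 was 0.0026 and of HSD17B4 0.013. With median-of-ratios scaling they were 0.078 for ACAD10, 0.089 for HSD17B4 and 0.0099 for ETFA, and with quantile normalization 0.059, 0.014 and 0.035. Leaving out each library in turn gave -0.043 to 0.138 for HADH, -0.115 to 0.059 for HSD17B4, -0.127 to 0.041 for ACAD10, -0.016 to 0.042 for HADHB and -0.104 to 0.303 for ACAD11. The log2 ratio of the peroxisomal to the mitochondrial sum was -0.42, -0.63 with ECI2, AMACR and ACAD11 counted as peroxisomal, -0.34 with them counted as mitochondrial and -1.0 with HSD17B4 left out. The alternatives with HSD17B4 left out and with readthrough genes added were chosen after seeing the data. Shared library numbers did not pair the libraries, with correlations of deviations of 0.0080, 0.017 and -0.0030, and a fit with the replicate block called 9463 genes instead of 10868 and, of the 32, dropped ACOX3 alone (adjusted p = 0.114). With a lone library left out, 7 to 10 of the 32 genes were called higher and 9 to 10 lower. Depth limits the lowest values, such as those of PLIN2 in parental libraries, and 3 libraries per group limit the precision throughout.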
